A study of Mus musculus with 9 samples.

Results

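The genes described here are those of the interferon response and of peptide presentation on major histocompatibility complex (MHC) class I, 36 genes chosen by symbol. The arrays measure 19938 genes with a probe set of their own. A probe set is a group of array probes read together, and it may name 1 gene, several or none. A member was measured if a probe set named it alone, and where several did, the one with the highest average signal was used. That held for 31 members, and 27 of these passed the filter on low values and were tested, among 16582 genes tested in all. Isg15, Gbp2, Igtp, H2-K1 and H2-D1 share their probe sets with other genes and have no value here, so the classical class I heavy chains were not analysed here. Ifit3, Mx1, Mx2 and Iigp1 did not pass the filter and are given by their values alone.

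The study followed primary myoblasts, the dividing precursors of skeletal muscle, as they became myotubes, the fibres that form when myoblasts leave the cell cycle and fuse. The groups, with 3 arrays each, were cycling myoblasts at 0 days, myotubes after 2 days and myotubes after 5 days in differentiating medium. Every sample shares one origin, the skeletal muscle of Balb/c mice with the wild type genotype. The medium of the myotubes is taken from the sample titles, since the growth protocol lists the same serum and bFGF medium for every sample. The labels do not say whether the 3 arrays of a group represent separate cultures or animals. The p-values thus measure at most array-to-array spread, which may be technical.

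Interferons are secreted proteins that warn cells of infection. Type I interferons bind the receptor made of Ifnar1 and Ifnar2, interferon gamma binds that made of Ifngr1 and Ifngr2, and both act through JAK kinases, STAT factors and interferon regulatory factors (IRFs) that switch on antiviral genes. Class I molecules, built from a heavy chain and B2m, carry peptides to the cell surface for inspection by cytotoxic T cells. The peptides are pumped into the endoplasmic reticulum by the transporter Tap1/Tap2, and interferon raises most parts of this route. Adult muscle fibres are known for low surface class I.

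The peptide transporter genes Tap1 and Tap2 had the largest falls among the tested members. Irf1 also fell, but on only 1 of its 2 probe sets, the one used here. By day 2 Tap1, Tap2, Irf1 and the chemokine Cxcl10 had fallen at least 2-fold against cycling myoblasts and the receptor chain Ifngr2 had risen. By day 5 Tap1, Tap2 and Irf1 were still at least 2-fold lower than in cycling myoblasts, Ifngr2 was higher, and Cxcl10 was higher. The other tested members, all 7 tested interferon-stimulated effectors included, did not reach 2-fold on both scales used here.

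Values are log2 values from RMA, a method that corrects array background, gives arrays one distribution and combines the probes of a probe set. It had been run separately for each time point, so levels at different times were not on one scale. Each log2 fold change (log2FC, the later time minus the earlier) is therefore given as deposited and then on a common scale made by quantile normalization over all 9 arrays. Over all genes tested the median log2FC was -0.01 and 0.09 at day 2 and -0.37 and 0.17 at day 5, both against cycling myoblasts. It was -0.40 and 0.05 at day 5 against day 2. A gene is called here if limma's Benjamini-Hochberg adjusted p over all 16582 genes was under 0.05 and the log2FC at least 1 in size, in the same direction on both scales. Many replicate values were identical, and the cause was not tested. All 3 arrays had the same value for 20 of the 31 measured members in cycling myoblasts, 26 in day 2 myotubes and 24 in day 5 myotubes. Over all probe sets the share with identical values was 47.9%, 60.2% and 56.7% in the same order. Such genes show no spread between the deposited arrays, so the standard errors may be too small. The size on both scales thus carries more weight than the p. Labelled identity was checked with fixed markers. The mean of 6 myotube markers such as Ckm and Myh3 lay at 8.77 to 9.02 log2 on the arrays of cycling myoblasts, 11.68 at day 2 and 11.09 to 11.13 at day 5. Of 6 myoblast markers, Pax7 and Myf5 were called lower at both later times, Myod1 and Cdh15 at day 5 alone, Des was called higher at both times and Itga7 was not called. In bulk RNA such as this, fewer cells of a type and less RNA per cell cannot be told apart.

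At day 2 against cycling myoblasts, 4 of the 27 tested members were called lower, which is 14.8% of them, where 8.41% of all genes tested were called lower. 1 member was called higher, which is 3.70%, against 6.04% of all genes. At day 5, again against cycling myoblasts, 3 members were called lower (11.1%, against 12.3% of all genes) and 2 higher (7.41%, against 4.44% of all genes). Between the myotube stages, day 5 against day 2, 0 members were called lower as limma and both scales require, against 3.67% of all genes, and 1 was called higher (3.70%, against 0.766%). The members' shares are thus near those of all genes, apart from the small counts of single genes. At day 2 the members had a median log2FC of -0.46 (deposited) and -0.16 (common scale). By day 5 it was -0.60 and 0.05, so its sign depends on the scale.

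**Figure D1:**
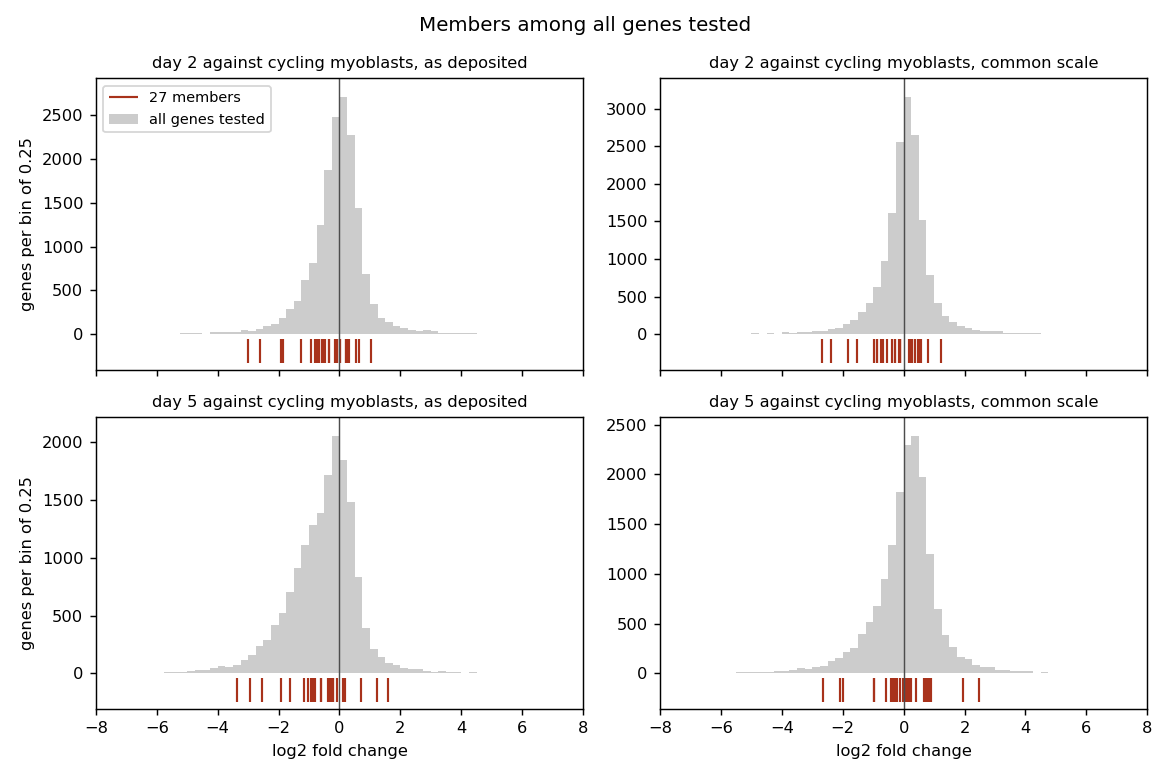
Distribution of log2FC over all 16582 genes tested (grey bars, genes per bin of 0.25) with the 27 tested members as red ticks below, for day 2 (top) and day 5 (bottom) against cycling myoblasts, as deposited (left) and on the common scale (right). Most members lie inside the bulk of all genes, and the ticks at the far left are Tap1 and Tap2, with Tap1 at -3.02 and -2.69 at day 2.

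Members were also counted at any size of change, where the adjusted p was under 0.05 in one direction on both scales. At day 2 against cycling myoblasts 15 members were lower and 9 higher (55.6% and 33.3%, against 37.4% and 42.8% of all genes tested). By day 5 these were 13 lower and 4 higher (48.1% and 14.8%, against 38.1% and 29.7% of all genes). For 9 members the sign of the day 5 value differed between the scales. Among them were Stat2, Irf3 and Tapbp, and no direction is given for them at day 5.

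**Figure D2:**
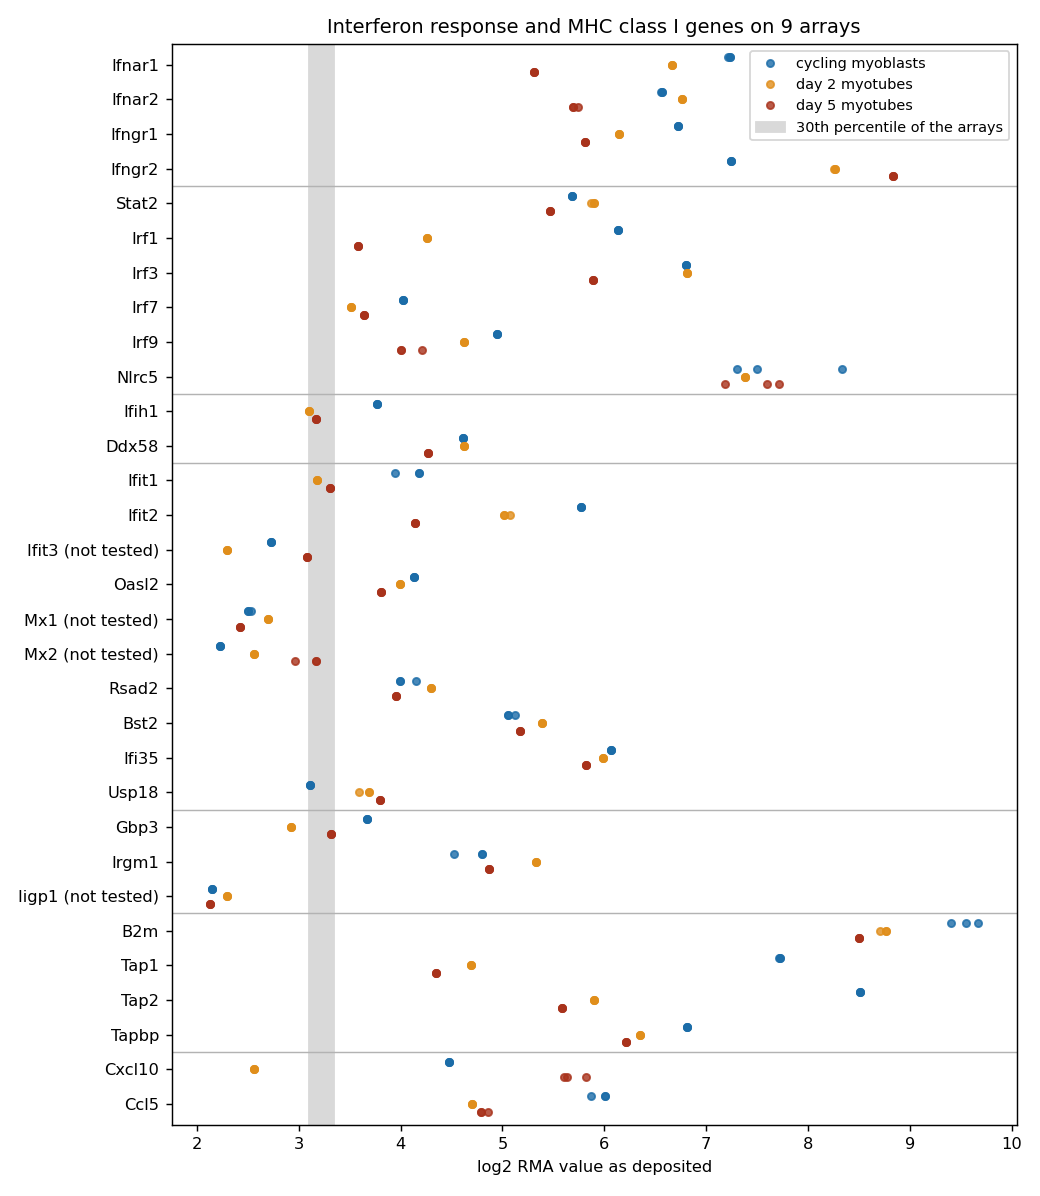
Deposited log2 RMA value of the 31 measured members (horizontal axis) on each array, with cycling myoblasts, day 2 myotubes and day 5 myotubes as 3 rows of points per gene and members grouped by role from receptors at the top to chemokines at the bottom. The grey band spans the 30th percentiles of the 9 arrays; Mx1, Iigp1 and Ifit3 lie at or below the 30th percentile on all arrays.

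Of the receptor chains, Ifngr2 was the one called. It transmits the interferon gamma signal as the partner of the binding chain Ifngr1. Its values were 7.24 on all 3 arrays of cycling myoblasts, 8.26, 8.26 and 8.25 at day 2 and 8.83 on all 3 arrays at day 5. The 3 time points did not overlap, and the order was the same on both scales. Groups without overlap were usual on these arrays, at 95.8% of all genes tested for day 2 against cycling myoblasts, 96.5% for day 5 against cycling myoblasts and 97.1% for day 5 against day 2. At day 2 against cycling myoblasts Ifngr2 rose with log2FC 1.02 as deposited and 1.24 on the common scale (SE 0.00947, limma adjusted p = 3.40e-12 on the common scale). By day 5 it had risen with log2FC 1.59 and 2.49 (adjusted p = 6.31e-14 by limma on the common scale). Against day 2 its day 5 value differed by 0.57 as deposited and 1.24 on the common scale, and so was not called.

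The type I chains did not share this course. Ifnar1, which with Ifnar2 forms the type I receptor, was 7.21, 7.23 and 7.23 in cycling myoblasts, 6.66 on all arrays at day 2 and 5.31 on all arrays at day 5. Its values were lower at each later time with no overlap, and at day 5 against cycling myoblasts the deposited log2FC was -1.91 and that on the common scale -0.99, just short of a call. Ifnar2 was 6.56, 6.57 and 6.57 in cycling myoblasts, 6.76 on all arrays at day 2 and 5.69, 5.74 and 5.69 at day 5. Against cycling myoblasts its day 5 log2FC was -0.86 on the deposited values and 0.10 on the common scale. The interferon gamma binding chain Ifngr1 stood at 6.72, 6.14 and 5.81 on all arrays of cycling myoblasts, day 2 and day 5, and its day 5 log2FC against cycling myoblasts was -0.92 and 0.05.

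Among the transcription factors Irf1 alone was called. Irf1 is induced by interferon gamma and activates Tap1 and other class I genes in mouse and human cells. The promoter windows of Irf1, Tap1, Cxcl10 and B2m are shown as those of the called factor, 1 called transporter gene, the called chemokine and the class I light chain, which was not called. Each runs from 250 bases before to 50 bases after a RefSeq start (GRCm38.p6), 5′ to 3′ on the gene's strand. Capitals mark the core of the interferon-stimulated response element (ISRE, letters GAAA, any 2 bases and GAAA, bound by IRFs) or the gamma-activated site (GAS, letters TTC, any 3 bases and GAA, bound by STAT dimers), searched on both strands.
Irf1 (chr11:53769764-53770063, plus strand): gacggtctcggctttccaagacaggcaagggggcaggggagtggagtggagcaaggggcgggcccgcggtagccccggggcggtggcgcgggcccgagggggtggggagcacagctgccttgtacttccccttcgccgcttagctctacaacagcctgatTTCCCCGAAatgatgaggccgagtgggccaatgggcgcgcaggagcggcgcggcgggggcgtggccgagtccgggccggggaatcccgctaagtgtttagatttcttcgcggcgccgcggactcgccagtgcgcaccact
Tap1 (chr17:34187306-34187605, plus strand): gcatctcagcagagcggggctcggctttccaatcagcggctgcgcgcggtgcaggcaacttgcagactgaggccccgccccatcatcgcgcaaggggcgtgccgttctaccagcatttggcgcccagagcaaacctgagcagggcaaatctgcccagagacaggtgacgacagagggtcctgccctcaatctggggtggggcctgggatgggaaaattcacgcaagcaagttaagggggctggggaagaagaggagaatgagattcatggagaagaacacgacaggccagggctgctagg
Cxcl10 (chr5:92348840-92349139, minus strand): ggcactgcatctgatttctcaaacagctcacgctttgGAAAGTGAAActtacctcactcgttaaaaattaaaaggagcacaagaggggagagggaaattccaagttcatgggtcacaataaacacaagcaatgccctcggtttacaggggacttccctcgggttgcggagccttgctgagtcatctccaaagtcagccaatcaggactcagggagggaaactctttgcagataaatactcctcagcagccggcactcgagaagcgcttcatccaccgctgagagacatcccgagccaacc
B2m (chr2:122147437-122147736, plus strand): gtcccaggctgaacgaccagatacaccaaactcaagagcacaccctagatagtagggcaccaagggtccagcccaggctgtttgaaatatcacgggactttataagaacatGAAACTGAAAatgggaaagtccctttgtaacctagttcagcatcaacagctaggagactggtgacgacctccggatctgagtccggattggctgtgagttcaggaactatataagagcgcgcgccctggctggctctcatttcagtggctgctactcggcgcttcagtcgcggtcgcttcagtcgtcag

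The Irf1 window holds a GAS (TTCCCCGAA) whose first base lies 90 bases before the start, and the other annotated Irf1 start has no match in its window. Cxcl10 has an ISRE core (GAAAGTGAAA) from 213 bases before its start and B2m one (GAAACTGAAA) from 139 bases before. In the Tap1 window neither set of letters occurs. Of all 32851 windows 3.44% hold the ISRE letters and 8.30% the GAS letters, and of all 27025 genes 3.99% and 9.55% do in at least 1 window. RefSeq windows matched 29 of the 36 members by symbol, 14 of which hold the ISRE letters in a window and 7 the GAS letters. In Bst2 and Igtp both motifs occur, and in Isg15, Gbp3, Bst2 and Irgm1 ISRE matches overlap each other. A match is a description of letters and shows no binding.

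Irf1 was 6.13 on all 3 arrays of cycling myoblasts, 4.26 on all 3 at day 2 and 3.58 on all 3 at day 5. The level was lower at each later time, and the later values lay under the array median. At day 2 against cycling myoblasts Irf1 fell with log2FC -1.87 as deposited and -1.54 on the common scale (SE 0.00774, limma adjusted p = 3.81e-13 on the common scale). By day 5 the values were -2.55 and -1.99 (limma adjusted p = 6.88e-14 on the common scale). Another probe set naming Irf1 did not show this course, with means of 3.60, 3.90 and 3.66 at 0, 2 and 5 days. With the mean of both probe sets Irf1 was not called, at log2FC -0.79 at day 2 as deposited.

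The other factors moved less. Stat2, part with Irf9 of the factor that type I interferon activates, averaged 5.68 in cycling myoblasts, 5.89 in day 2 and 5.47 in day 5 myotubes (SD at most 0.017, n = 3 each). Irf9 had means of 4.95, 4.62 and 4.07 (SD 0, 0 and 0.122). Irf3, which responds to viral nucleic acid, stood at 6.80, 6.81 and 5.89 at 0, 2 and 5 days, and Irf7, which amplifies type I interferon, at 4.02, 3.51 and 3.64. None of these 4 genes was called in any of the 3 comparisons. Nlrc5, the coactivator of class I genes, was 8.33, 7.30 and 7.50 in cycling myoblasts, 7.38 on all arrays at day 2 and 7.71, 7.60 and 7.18 at day 5. Its groups overlapped, and limma gave it an adjusted p at day 2 of 0.295 (deposited values) and 0.681 (common scale).

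The largest falls were in the peptide transporter, which carries peptides into the endoplasmic reticulum. Tap1 was 7.71, 7.72 and 7.72 in cycling myoblasts, 4.69 on all 3 arrays at day 2 and 4.35 on all 3 at day 5. Tap1 at day 2 was far below every array of cycling myoblasts, a fall of log2FC -3.02 as deposited and -2.69 on the common scale (SE 0.00978, limma adjusted p = 8.20e-14 on the common scale). By day 5 the values were -3.37 and -2.66. That is 10.3-fold lower as deposited and 6.32-fold lower on the common scale.

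Tap2, the partner of Tap1 in the transporter, was 8.51 on all arrays of cycling myoblasts, 5.90 on all at day 2 and 5.58 on all at day 5. Tap2 fell with log2FC -2.61 and -2.39 at day 2 (SE 0.0147, limma adjusted p = 1.11e-12 on the common scale) and -2.93 and -2.08 at day 5, both against cycling myoblasts. Both transporter genes stayed above the array median at every time. Between day 2 and day 5 neither was called, with differences of -0.35 as deposited and 0.03 on the common scale for Tap1 and -0.32 and 0.31 for Tap2.

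The partners of the transporter moved less. B2m, the light chain of every class I molecule, was 9.40, 9.55 and 9.67 in cycling myoblasts, 8.76, 8.71 and 8.76 at day 2 and 8.50 on all arrays at day 5. The later arrays all lay below those of cycling myoblasts, but the log2FC stayed under 1 on at least one scale, at -0.80 and -0.69 at day 2 and -1.04 and -0.26 at day 5. Tapbp, or tapasin, which holds class I at the transporter, was 6.81, 6.35 and 6.21 on all arrays of cycling myoblasts, day 2 and day 5. Its log2FC was -0.46 and -0.16 at day 2, and -0.60 as deposited and 0.39 on the common scale at day 5.

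**Figure D3:**
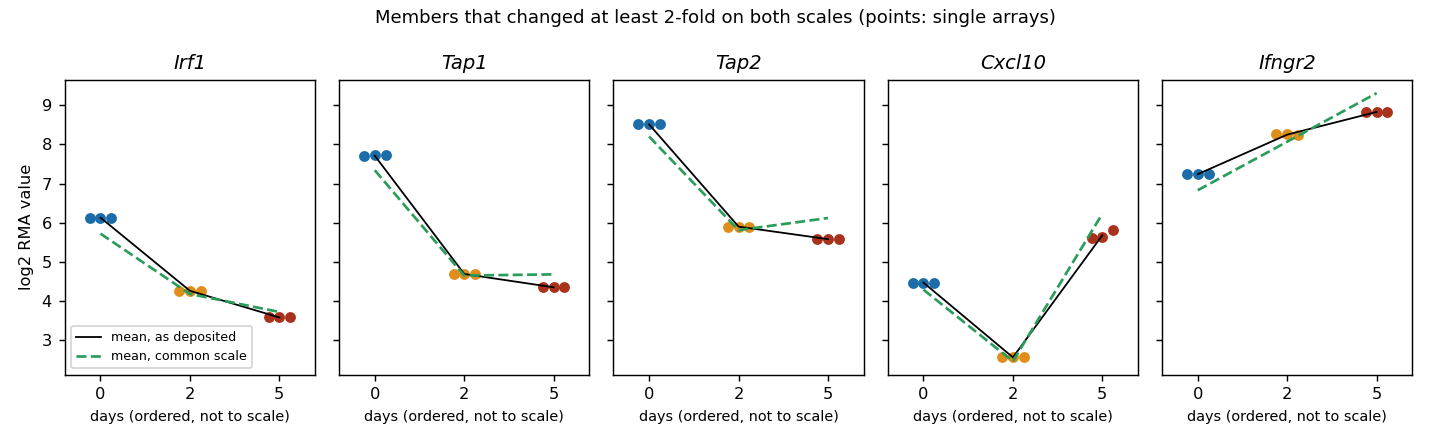
Log2 RMA values of Irf1, Tap1, Tap2, Cxcl10 and Ifngr2 on single arrays (points, as deposited) at 0, 2 and 5 days, with means as deposited (solid line) and on the common scale (dashed line). Irf1, Tap1 and Tap2 drop by day 2 on both scales, Cxcl10 drops at day 2 and lies above cycling myoblasts at day 5, and Ifngr2 climbs.

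The 2 chemokines, which attract T cells and other leukocytes, took different courses. Cxcl10, the ligand of Cxcr3, was 4.47 on all arrays of cycling myoblasts, 2.56 on all at day 2 and 5.60, 5.63 and 5.82 at day 5. The day 2 arrays were lowest and the day 5 arrays highest, with no overlap. Cxcl10 fell with log2FC -1.91 and -1.83 at day 2 against cycling myoblasts (limma adjusted p = 8.18e-09 on the common scale). Its day 2 level lay at or below the 30th percentile of the arrays, so the size of that fall and of the later rise is not known on that side. At day 5 Cxcl10 rose with log2FC 1.22 and 1.94 against cycling myoblasts (SE 0.0518, limma adjusted p = 4.70e-09 on the common scale), where both levels were above the array median. Against day 2 the difference at day 5 was 3.12 and 3.78.

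Ccl5 was 5.87, 6.01 and 6.01 in cycling myoblasts, 4.70 on all arrays at day 2 and 4.79, 4.79 and 4.86 at day 5. Its later values were lower without overlap, as was usual over all genes. The log2FC was -1.27 and -0.89 at day 2, and -1.15 and -0.29 at day 5, so Ccl5 was not called.

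Neither RNA sensor was called. Ddx58 (RIG-I) stood at 4.61, 4.62 and 4.27 at 0, 2 and 5 days, and Ifih1 (MDA5) at 3.77, 3.10 and 3.17, with its day 2 level at or below the 30th percentile. The interferon-stimulated effectors gave 0 calls among 7 tested in any of the 3 comparisons, although limma's p without the size limit passed on both scales for 3 lower and 3 higher at day 2. Of all genes, 8.41% were called lower and 6.04% higher at day 2, and 37.4% and 42.8% passed without the size limit, so among so few genes these counts do not set the effectors apart. Ifit2, which binds RNA and blocks translation, had means of 5.77, 5.03 and 4.14 at 0, 2 and 5 days. By day 5 its log2FC against cycling myoblasts was -1.62 and -0.96. Its relative Ifit1 had means of 4.10, 3.18 and 3.31 over the same times, with log2FC -0.92 and -0.96 at day 2.

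Bst2, or tetherin, which holds virus particles at the membrane, had means of 5.07, 5.39 and 5.17 in cycling myoblasts, day 2 and day 5. Against cycling myoblasts the log2FC of Bst2 was 0.32 and 0.57 at day 2, and 0.10 and 0.89 at day 5. Usp18, which removes Isg15 from proteins and damps type I signalling, had 3.11, 3.66 and 3.80, with cycling myoblasts at or below the 30th percentile. Its log2FC at day 5 against cycling myoblasts was 0.69 and 0.81. Rsad2 (viperin), an antiviral enzyme, had 4.04, 4.30 and 3.95, Oasl2, of the oligoadenylate synthetase family, had 4.13, 3.99 and 3.81, and Ifi35 had 6.07, 5.99 and 5.82. The filter left out Ifit3 at 2.73, 2.30 and 3.08, and Mx1, a dynamin-like antiviral GTPase that is defective in most inbred laboratory strains, at 2.51, 2.70 and 2.42. It also left out Mx2 at 2.23, 2.56 and 3.10. In cycling myoblasts 5 of the 31 measured members lay at or below the 30th percentile on all arrays, at day 2 this was 8 and at day 5 it was 3.

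Of the interferon-inducible GTPases, which attack the vacuoles of intracellular pathogens, Irgm1 had means of 4.70, 5.33 and 4.87 in cycling myoblasts, day 2 and day 5. Its log2FC against cycling myoblasts was 0.63 and 0.80 at day 2, and 0.17 and 0.85 at day 5. Gbp3 stood at 3.67, 2.92 and 3.32, with day 2 at or below the 30th percentile, and log2FC -0.75 and -0.86 at day 2. Neither was called, and Iigp1 was at 2.15, 2.30 and 2.13 and not tested.

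**Figure D4:**
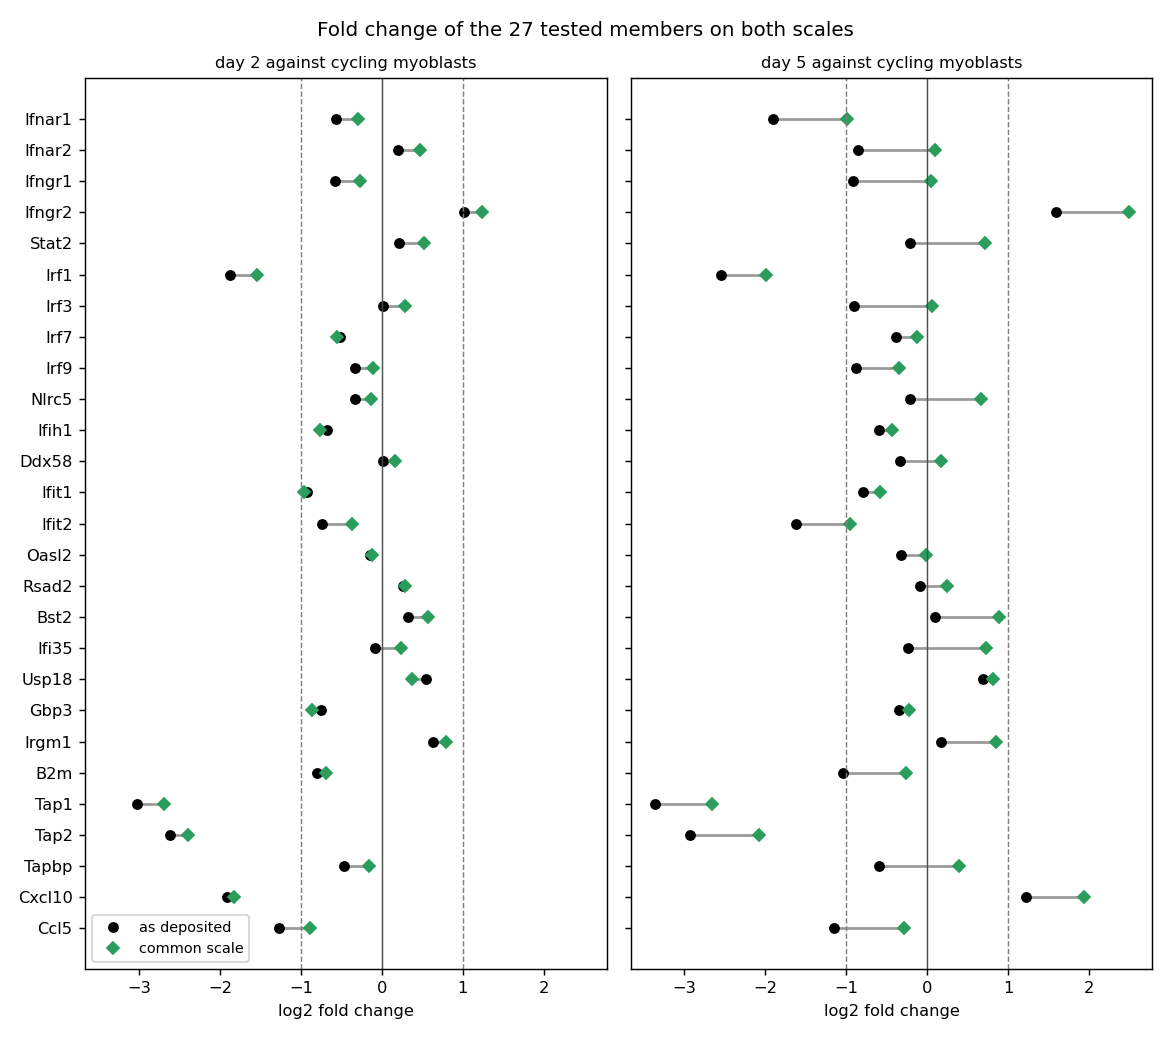
Log2FC of each of the 27 tested members at day 2 (left) and day 5 (right) against cycling myoblasts, as deposited (black circles) and on the common scale (green diamonds); dashed lines mark 2-fold. Tap1, Tap2 and Irf1 lie left of the line on both scales and at both times, and at day 5 every green diamond lies to the right of its circle.

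A further list held 90 other genes of interferon signalling and antigen presentation, of which 72 had a probe set naming them alone and 62 were tested. At day 2 against cycling myoblasts 9 of the 62 were called lower and 0 higher by limma on both scales (14.5% and 0%, against 8.41% and 6.04% of all genes). Without the size limit 41 were lower and 13 higher (66.1% and 21.0%, against 37.4% and 42.8% of all genes). By day 5, 11 were called lower and 1 higher (17.7% and 1.61%, against 12.3% and 4.44%). The median log2FC of the list was -0.50 and -0.34 at day 2, and -0.65 and 0.05 at day 5.

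In antigen processing Psmb8, a catalytic subunit of the immunoproteasome that cuts peptides for class I, fell with Tap1 and Tap2. Its level was 6.42 on all arrays of cycling myoblasts, 3.74 on all at day 2 and 3.62 on all at day 5, with log2FC -2.67 and -2.37 at day 2 and -2.79 and -2.22 at day 5. The later levels lay under the array median. Pdia3, a disulfide isomerase of the class I loading complex, was called at day 5 alone, with log2FC -0.77 and -0.69 at day 2 and -1.81 and -1.15 at day 5.

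Among the signalling genes the kinase Jak2, which serves the interferon gamma receptor, fell. It was 7.51 on all arrays of cycling myoblasts, 5.73, 5.59 and 5.59 at day 2 and 4.59 on all at day 5. The log2FC of Jak2 was -1.87 and -1.54 at day 2 and -2.91 and -2.13 at day 5 (limma adjusted p = 1.84e-10 on the common scale). Jak1, which serves both receptors, had log2FC -0.80 and -0.64 at day 2, and -1.20 and -0.34 at day 5. Tyk2, the type I receptor kinase, had 0.50 and 0.76 at day 2, and 0.26 and 1.11 at day 5. Neither Jak1 nor Tyk2 was called.

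The phosphatase Ptpn2, which switches off JAK and STAT proteins, had log2FC -0.64 and -0.39 at day 2 and fell by day 5, with -1.98 and -1.06. Trim25, the ubiquitin ligase that acts on RIG-I, was the listed gene called between the myotube stages, with -2.07 and -1.39 at day 5 against day 2. Interferon beta, Ifnb1, had log2FC 1.04 and 1.15 at day 5 against cycling myoblasts and was called higher, but its level of 2.62 in cycling myoblasts lay at or below the 30th percentile and the 3.66 at day 5 lay under the array median.

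Of the effectors in this list, the membrane proteins Ifitm3 and Ifitm2, which block virus entry, both fell at day 2. Ifitm3 was 9.87, 10.12 and 10.21 in cycling myoblasts, 7.44 on all arrays at day 2 and 8.28, 8.13 and 8.31 at day 5. The day 5 arrays lay between the other groups, with log2FC -2.63 and -2.47 at day 2 and -1.83 and -1.01 at day 5, both against cycling myoblasts. Ifitm2 had -1.63 and -1.51 at day 2, and -1.44 and -0.64 at day 5.

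The guanylate-binding proteins Gbp4 and Gbp9 fell at both times, with log2FC -2.63 and -2.32 for Gbp4 and -2.12 and -1.75 for Gbp9 at day 2. Another probe set of the array names both of these genes together with further copies, so their readings may not be separate. Pml, the scaffold of nuclear bodies, fell with -2.13 and -1.82 at day 2 and -3.23 and -2.49 at day 5. Rtp4 and Herc6, both interferon-stimulated genes, fell at day 2 with -1.55 and -1.21 for Rtp4 and -1.95 and -1.88 for Herc6. Cmpk2 was called lower at day 5 with -1.17 and -1.09. The lower levels of Herc6 and Cmpk2, and of Gbp4 at day 5, lay at or below the 30th percentile, so their sizes are not known on that side.

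**Figure D5:**
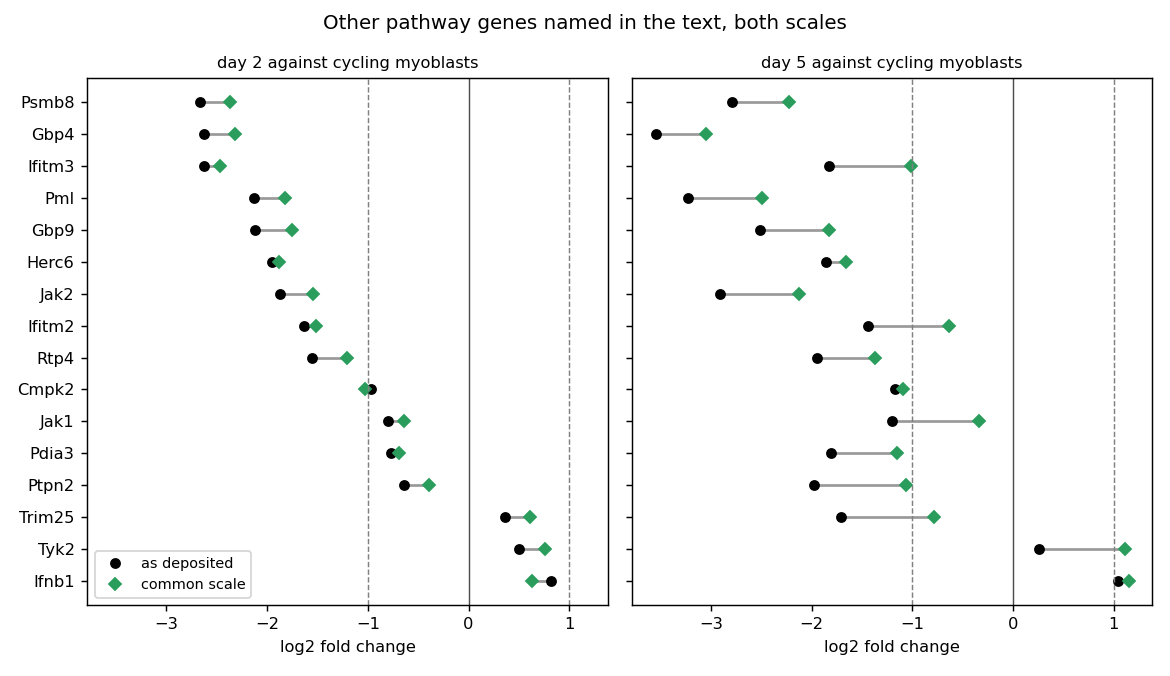
Log2FC of the 16 other pathway genes named in the text at day 2 (left) and day 5 (right) against cycling myoblasts, as deposited (black circles) and on the common scale (green diamonds), ordered by the day 2 value. Psmb8, Gbp4 and Ifitm3 lie farthest left at day 2, with deposited values of -2.67, -2.63 and -2.63, while Trim25, Tyk2 and Ifnb1 lie right of 0 there.

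Leukocytes carry much of the interferon response in tissue, so markers of other cell types were read on the same arrays. Of 7 macrophage markers with a probe set, Adgre1 and Lyz2 lay at or below the 30th percentile on every array. The summed linear level of all 7, as deposited, was 74.9 in cycling myoblasts, 89.0 to 90.4 in day 2 and 68.6 in day 5 myotubes. Itgam was called higher at day 2 (2.73, 4.69 and 3.62 at 0, 2 and 5 days), and 0 macrophage markers were called lower. Cd68, above the array median in cycling myoblasts at 4.82, had log2FC -0.83 and -0.68 at day 2 and -1.01 and -0.57 at day 5. Cd14 had -0.31 and -0.42 at day 2 and -0.25 and -0.10 at day 5. Ptprc had 0.65 and 0.46 at day 2 and 0.35 and 0.40 at day 5. Csf1r had 0.90 and 0.73 at day 2 and 0.05 and 0.09 at day 5. The macrophage markers thus did not share 1 direction. The summed level of 5 lymphocyte markers was 54.7, 65.3 to 65.7 and 57.8 to 59.3 over the same times. For 4 fibroblast markers it was 99.1, 83.8 and 84.6 to 84.8, and for 5 endothelial markers 45.7 to 46.5, 54.6 to 55.3 and 56.8 to 57.1. All these sums are of deposited values, which were not on one scale between times, so they give no direction over time. On the common scale each of the 4 fibroblast markers was higher at day 5 than at 0 days. The means were 4.14 and 4.71 for Pdgfra, 2.68 and 2.96 for Dcn, 4.99 and 5.43 for Col1a1 and 4.73 and 5.09 for Thy1. The part of these cells in the results was not tested.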

How the data were processed

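Per the labels' protocols, total RNA of mouse primary myoblasts and myotubes was hybridised to Affymetrix arrays, 9 in all. The authors deposited log2 expression values from RMA, run for each replicate set per the series' design text and the submitters' processing notes; its version is not given in the sources read. Arrays of 1 time point share a distribution and time points do not. Of 35556 probe sets, 21789 named 1 gene in the platform annotation, 1621 several and 12146 none. Genes were kept if 3 or more arrays read them above that array's 30th percentile. One linear model with a mean per time point was fitted to the 9 arrays (lmFit and eBayes of limma 3.58.1, R 4.3.3), on the deposited values and after quantile normalization. The script was tested on simulated data. Named were all members, the other pathway genes that were called, and Jak1, Tyk2 and Psmb8 whatever their values; Psmb9, Psmb10 and Il10rb were named after their values were seen. 1 further gene that the rule names is not reported here. The members and lists were chosen with earlier results of these data known. Same-numbered arrays of different groups had deviations correlated at -0.038 to 0.106 over 9 pairs. Many replicate values were identical and RMA was run per time point, so this cannot decide whether the numbers pair the arrays. The main fit used no pairing. Promoters are from RefSeq. The number of arrays limits the precision.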

Additional observations from a re-analysis of the deposited data

How the results depend on the processing

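At day 2 against cycling myoblasts the count of members called lower was 4 on both scales. As deposited alone, and with each array centred on its median, it was 5 (Ccl5 added). At day 5 against cycling myoblasts it was 3 on both scales, 7 as deposited alone (B2m, Ccl5, Ifit2 and Ifnar1 added) and 5 with centring (Ifit2 and Ifnar1 added). Between the myotube stages it was 0 on both scales, 2 as deposited alone (Ifnar1 and Ifnar2) and 1 with centring (Ifnar1), and members called higher were 1 on both scales and 2 on the common scale alone (Ifngr2 added). Members called higher at day 5 against cycling myoblasts were 2 on both scales and 3 with centring (Usp18 added). With the mean of all probe sets Irf1 lost its call at both times. Without day 5 replicate 1 or without day 5 replicate 2, Ifnar1 was called lower at day 5 and the count was 4. With the replicate number as a block the counts of members called lower were 4, 3 and 0 and of members called higher 1, 2 and 1 over the 3 comparisons, as without it; the labels share only a number. Without a filter and with trend and robust on, these counts did not move.

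Signs turned against the deposited value as follows; the median of all genes was higher on the common scale by 0.10 at day 2 and 0.55 at day 5 against cycling myoblasts and by 0.46 at day 5 against day 2. On the common scale at day 2 against cycling myoblasts, Ifi35 had 0.241. On the common scale at day 5 against cycling myoblasts, Ifnar2 had 0.102, Ifngr1 0.052, Stat2 0.717, Irf3 0.063, Nlrc5 0.663, Ddx58 0.17, Rsad2 0.237, Ifi35 0.728 and Tapbp 0.391. On the common scale at day 5 against day 2, Ifngr1 had 0.319, Stat2 0.201, Ddx58 0.009, Oasl2 0.11, Bst2 0.323, Ifi35 0.487, Irgm1 0.057, B2m 0.435, Tap1 0.026, Tap2 0.307 and Tapbp 0.549. With arrays centred on the median, day 5 against cycling myoblasts gave Stat2 0.148, Nlrc5 0.14, Ddx58 0.015, Oasl2 0.033, Rsad2 0.264, Ifi35 0.109 and Gbp3 0.007, and day 5 against day 2 gave Oasl2 0.095, Bst2 0.059, Ifi35 0.116, B2m 0.038 and Tapbp 0.137. With the mean of its probe sets Nlrc5 had 0.111 at day 2 and 0.117 at day 5 against cycling myoblasts, and with single arrays left out its day 5 value ran from -0.418 (without cycling myoblasts replicate 2) to 0.098 (without cycling myoblasts replicate 1). Over all genes, 26.5% of calls at day 5 against cycling myoblasts were higher on both scales, 13.2% as deposited alone and 49.0% on the common scale alone. Between day 5 and day 2 these shares were 17.3%, 4.7% and 43.1%. At day 2 against cycling myoblasts they were 41.8%, 34.7% and 47.7%. With no background measure deposited, a low level may or may not exceed background.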

Other observations

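Neighbours on the genome were read after the members' values were seen. In RefSeq order on chromosome 17 the protein-coding genes from Psmb9 to Tap2 are Psmb9, Tap1, Psmb8 and Tap2. Psmb9, another immunoproteasome subunit that shares an upstream region with Tap1, had 6.53 on all arrays of cycling myoblasts, 5.47 at day 2 and 5.07 at day 5. Its log2FC (as deposited, then on the common scale) was -1.06 and -0.69 at day 2, and -1.45 and -0.55 at day 5, so it was not called, while the other three were. Psmb10, the third interferon-induced catalytic subunit, had 6.10, 6.95 and 6.19 in cycling myoblasts, day 2 and day 5, with log2FC 0.85 and 1.10 at day 2.

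On chromosome 16 the receptor genes lie in the order Ifnar2, Il10rb, Ifnar1 and Ifngr2. At day 2 against cycling myoblasts the log2FC on the common scale was 0.47 for Ifnar2, -0.71 for Il10rb, -0.29 for Ifnar1 and 1.24 for Ifngr2, and at day 5 it was 0.10, 0.17, -0.99 and 2.49 in the same order.

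Nlrc5 had 19 probe sets naming it alone. Their mean differences ran from -0.53 to 0.95 at day 2 against cycling myoblasts, with 12 higher and 7 lower, and from -0.61 to 0.79 at day 5, with 11 higher and 8 lower, all as deposited. The probe set with the highest mean, used above, also had the widest spread of any member over the arrays of cycling myoblasts (SD 0.547, n = 3).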
